A study of Mus musculus with 20 samples.

Results

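The following 10 genes of the TGF-beta pathway were examined in bulk RNA of the mouse temporomandibular joint (TMJ), namely the ligands *Tgfb1*, *Tgfb2* and *Tgfb3*, the latency proteins *Ltbp1*, *Ltbp2* and *Ltbp3*, the receptors *Tgfbr1* and *Tgfbr2*, and the feedback inhibitors *Smad7* and *Pmepa1*. They were taken by name from a deposited table of 54532 genes. All 10 of the 10 were among the 15984 genes that passed the filter on low counts. The tissue was the head of the condyle, the jaw's side of the joint, with some subchondral bone. The genotype of every mouse was Acan-Cre; *Loxl2* fl/fl, that is, both copies of *Loxl2* were flanked by loxP sites and the tamoxifen-inducible Cre recombinase was made where the aggrecan (*Acan*) promoter is active. *Loxl2* encodes an enzyme of the lysyl oxidase family, which crosslinks matrix proteins. Mice of both sexes, 6 months old at the start, received vehicle (control, 8 libraries) or tamoxifen at 75 mg/kg (labelled knockout, 12 libraries), and tissue was taken 4 months later. The injections were daily at first and were then repeated once a month over that time. Every control carried the floxed alleles and the Cre, without the drug, so effects of tamoxifen and of the deletion cannot be told apart. The Cre acts in aggrecan-expressing cells alone, whereas the RNA came from all cells of the piece. In such bulk samples fewer cells of a type and less RNA per cell cannot be told apart either.

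TGF-beta is made as a precursor that is cut into the growth factor and a latency-associated peptide, which stay bound to each other. The latent TGF-beta binding proteins tie this complex to the matrix, from which integrins, proteases and mechanical pull release the active factor. The active factor binds TGF-beta receptor 2, which recruits and phosphorylates receptor 1, and receptor 1 in turn phosphorylates Smad2 and Smad3. Cartilage and bone are large stores of latent TGF-beta. In cartilage it restrains terminal differentiation of chondrocytes, and in bone it is released when osteoclasts resorb the matrix.

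The targeted gene was examined first. *Loxl2* ran from 16 to 104 CPM (counts scaled to library size with TMM) in control with a median of 70.3, and from 28.8 to 126 CPM with a median of 110 in the libraries labelled knockout. It was thus not lower where deletion was labelled, and 11 of 12 values exceeded the control median (log2 fold change 0.64, SE 0.28, adjusted p = 0.101). It passed the threshold only when labelled-knockout replicate 12 was left out (adjusted p = 0.0313), the library with the lowest *Loxl2* of its group. The counts cover the whole gene and the deleted exons were not examined separately, so the label is used below as given and not as a measured loss of *Loxl2*. By immunostaining the paper reports less LOXL2 protein in the knockout mice, a measure unlike RNA of the whole piece.

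Library totals ran from 11153820 to 27045668 counts, and the 10 genes were read at 170 to 8141 counts per library, far over the floor of 3 counts. Chondrocyte markers were read in all libraries, but skeletal muscle genes were prominent in this tissue. A list of 10 of them summed to 44580 to 189600 CPM in control and 33270 to 88310 CPM in the libraries labelled knockout (difference of mean log2 levels -0.60, exact permutation adjusted p = 0.0531, 5 of 10 genes lower). Control replicate 8 stood apart, with 111 CPM summed over 10 chondrocyte genes against at least 1537 in the other control libraries and with the highest sum of skeletal muscle genes (189600 CPM). Labelled-knockout replicate 9 held 3042 CPM of salivary gland genes against at most 83.0 in the rest of its group. The summed level of 10 osteoclast markers ran from 181 to 1445 CPM in control and from 640 to 7910 CPM in the libraries labelled knockout (difference of mean log2 levels 2.51, exact two-sided permutation test, adjusted p = 0.00114), and all 10 of its genes passed the test upward. The macrophage list behaved likewise, from 54.1 to 259 CPM against 156 to 593 CPM (difference 1.49, exact permutation adjusted p = 0.00114, 7 of 9 genes higher). The osteoblast and osteocyte list ran from 291 to 2929 CPM and from 825 to 7070 CPM (difference 1.24, exact permutation adjusted p = 0.0531, 4 of 10 genes higher). The fibroblast list (difference 0.94, 2 of 6 genes higher), the chondrocyte list (1.01, 2 of 8 tested genes higher) and the mast cell list (1.955, 4 of 5 tested genes higher) were higher as well, with exact permutation adjusted p values of 0.00292, 0.0261 and 0.0245. The chondrocyte difference includes the low value of control replicate 8 and was not tested without it. The other control libraries ran from 1537 to 3176 CPM on that list and the libraries labelled knockout from 1972 to 5180 CPM. At a threshold of 0.05 the osteoblast and osteocyte list and the skeletal muscle list did not pass (exact permutation adjusted p = 0.0531 each). Nor did the other 9 cell type lists (lowest exact permutation adjusted p = 0.0674, neutrophil genes). Fits with some of these lists as covariate are given below. The part of cell type make-up in the results for the TGF-beta genes was not tested.

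Of the 10 TGF-beta genes, 7 rose in the libraries labelled knockout and 0 fell (0 lower with DESeq2 and 0 lower at an unadjusted p under 0.05). They were *Tgfb1*, *Pmepa1*, *Ltbp1*, *Tgfbr2*, *Tgfbr1*, *Smad7* and *Ltbp3*, in order of size. The remaining 3, *Tgfb2*, *Tgfb3* and *Ltbp2*, did not pass. The test was the quasi-likelihood test of edgeR with Benjamini-Hochberg adjustment over all genes and a threshold of 0.05, under which 23% of all tested genes were called, 12% higher and 11% lower. The median log2 fold change of the 10 genes was 0.53, beside -0.02 over all tested genes, and 9 of the 10 had a fold change above 0. In no gene of the 10 did the groups separate completely, which 0.3% of all tested genes did. The plot of the 10 genes by library shows both groups.

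**Figure D1:**
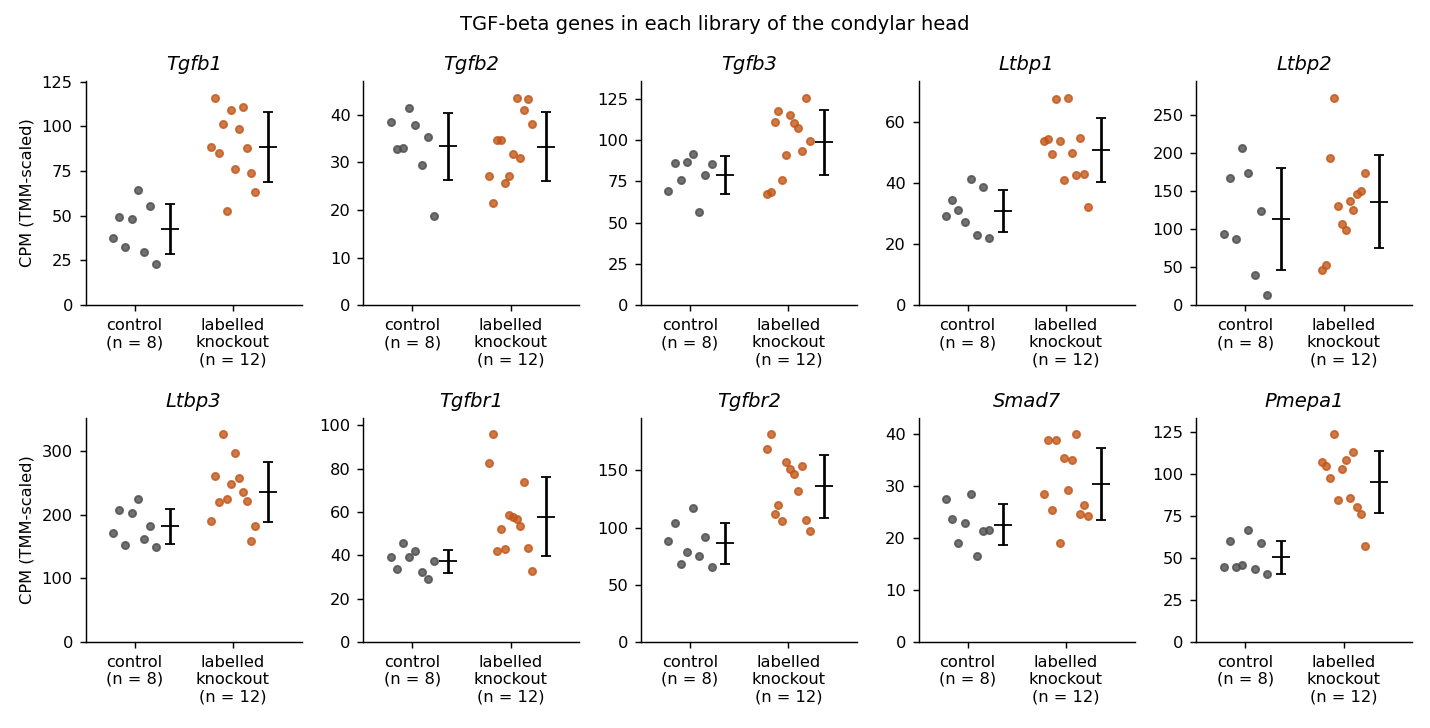
TMM-scaled CPM (linear axes from 0) of the 10 TGF-beta genes in each of the 8 control libraries (grey) and the 12 libraries labelled knockout (orange), with mean and SD as black bars beside the points. *Tgfb1*, *Ltbp1* and *Pmepa1* show the clearest shift by this count, with 10, 10 and 11 of 12 labelled-knockout libraries above the highest control. The *Tgfb2* and *Ltbp2* points cover much the same range in both groups.

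The ligands did not move together. *Tgfb1*, the isoform stored most widely in bone matrix, lies on chromosome 7 (25687002 to 25705077, plus strand, GRCm38). It ran from 23.0 to 64.2 CPM in control with a median of 42.9, and from 52.4 to 116 CPM with a median of 88.2 in the libraries labelled knockout. All 12 labelled-knockout libraries exceeded the control median and 10 of 12 the control maximum, and the 2 that did not were replicates 5 and 12. Control had a mean of 42.5 CPM ± 14.02 (SD, n = 8) and the libraries labelled knockout of 88.6 CPM ± 19.7 (SD, n = 12). The log2 fold change was 1.06 (SE 0.18, adjusted p = 0.00125).

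*Tgfb2* encodes the isoform known for its roles in heart and skeletal development. The gene is on chromosome 1 (186622792 to 186705989, minus strand). It ran from 18.7 to 41.3 CPM with a median of 34.2 in control and from 21.4 to 43.5 CPM with a median of 33.2 in the libraries labelled knockout. The ranges overlap almost fully, the control median being exceeded in 6 of 12 labelled-knockout libraries. The log2 fold change was -0.01 (SE 0.14, adjusted p = 0.975), with a 95% interval from -0.29 to 0.27, and its sign turned with scaling by library totals alone (0.11, adjusted p = 0.699), which moves the median of all genes to 0.12. The lowest control value was again replicate 8.

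*Tgfb3*, the isoform required for palate fusion, is on chromosome 12 (86056745 to 86079041, minus strand). Control libraries ran from 56.4 to 91.4 CPM with a median of 82.2, and the libraries labelled knockout from 67.5 to 126 CPM with a median of 103. The highest control was exceeded by 8 of the 12, while replicates 1, 2 and 5 lay below the control median. The log2 fold change of 0.32 (SE 0.12) missed the threshold (adjusted p = 0.0612), with a 95% interval from 0.08 to 0.56. It passed when control replicate 5 or labelled-knockout replicate 1, 2 or 5 was left out (lowest adjusted p = 0.0318) and with scaling by library totals alone (log2 fold change 0.46, adjusted p = 0.0209).

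The start regions of *Tgfb1* and *Tgfb2* are shown because these ligands differed most in their response. Each line is the 250 bases before the RefSeq start, read 5′ to 3′ on the gene's strand (RefSeq, GRCm38.p6, chr7:25686752-25687001 for *Tgfb1* and chr1:186705990-186706239 for *Tgfb2*). Capitals mark GGGCGG or TATAAA on either strand.
Tgfb1: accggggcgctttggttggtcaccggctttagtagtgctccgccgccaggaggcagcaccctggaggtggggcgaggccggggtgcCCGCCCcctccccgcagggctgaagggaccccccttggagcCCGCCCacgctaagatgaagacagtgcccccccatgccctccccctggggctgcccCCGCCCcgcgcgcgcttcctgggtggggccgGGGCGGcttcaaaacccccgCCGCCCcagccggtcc
Tgfb2: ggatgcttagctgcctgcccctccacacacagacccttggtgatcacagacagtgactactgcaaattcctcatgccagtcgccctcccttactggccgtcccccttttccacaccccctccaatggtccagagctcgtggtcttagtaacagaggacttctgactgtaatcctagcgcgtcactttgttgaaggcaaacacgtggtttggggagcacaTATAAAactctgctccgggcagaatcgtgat
The *Tgfb1* window holds 75.2% G and C, more than 96.1% of the 32851 windows of the same length, and has 5 GGGCGG matches and 0 TATAAA matches. The *Tgfb2* window holds 53.6% G and C, with 0 GGGCGG matches and 1 TATAAA match whose first base lies 31 bases before the start. Of all windows 32.7% hold at least 1 GGGCGG, 1.93% hold 5 or more, and 12.4% hold a TATAAA. Windows were found for 7 of the 10 genes. *Ltbp2* and the first of the *Tgfbr1* windows held 2 GGGCGG matches each, the windows of *Ltbp1*, *Ltbp3* and *Tgfbr2* held 0, and TGACTCA, the core of AP-1 sites, was in 0 of the windows examined (4.46% of all windows). These matches describe the letters only.

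The make-up of the ligand pool was compared per exon length, since longer transcripts collect more reads. In control, *Tgfb3* made up 62.4% ± 6.1 of the length-scaled ligand signal, *Tgfb1* 22.1% ± 4.5 and *Tgfb2* 15.5% ± 3.0 (SD, n = 8). In the libraries labelled knockout the shares were 55.3% ± 6.1, 33.7% ± 7.3 and 10.97% ± 1.9 (SD, n = 12). The *Tgfb1* share was higher by 11.6 percentage points (two-sided exact permutation test, 125970 assignments, adjusted p = 0.00122 over the 3 shares). All 12 labelled-knockout shares exceeded the control median. The *Tgfb2* share fell by 4.50 points (exact permutation adjusted p = 0.00122), and the control median was exceeded in 0 of 12. The shares are parts of the same sum, so the 3 differences are not independent and a lower share need not be a lower level. By level *Tgfb2* and *Tgfb3* had log2 fold changes of -0.01 and 0.32, neither of which passed. The *Tgfb3* share fell by 7.10 points (exact permutation adjusted p = 0.0159) but this rested on control replicate 8, whose share was 76.5%, and without that library the difference was -5.10 points (exact permutation adjusted p = 0.0507). At this length *Tgfb1* exceeded *Tgfb3* in labelled-knockout replicate 2 alone. The highest *Tgfb1* shares were 49.0% in labelled-knockout replicate 2, 41.6% in replicate 1 and 40.7% in replicate 6. The make-up depended on the length used, since the exons of *Tgfb1* span 5042 bases in all but its median coding transcript 2175, whereas both are 3383 bases for *Tgfb3*. Scaled by median transcript length, the shares of *Tgfb3*, *Tgfb1* and *Tgfb2* were 46.7% ± 7.1, 37.8% ± 6.2 and 15.45% ± 2.8 in control (SD, n = 8) and 37.7% ± 6.2, 52.3% ± 7.9 and 10.06% ± 2.1 in the libraries labelled knockout (SD, n = 12). *Tgfb1* then exceeded *Tgfb3* in control replicates 5 and 7 and in 10 of 12 libraries labelled knockout, so the order of the 2 ligands depends on the length taken. The direction of each share difference was the same with both lengths.

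**Figure D2:**
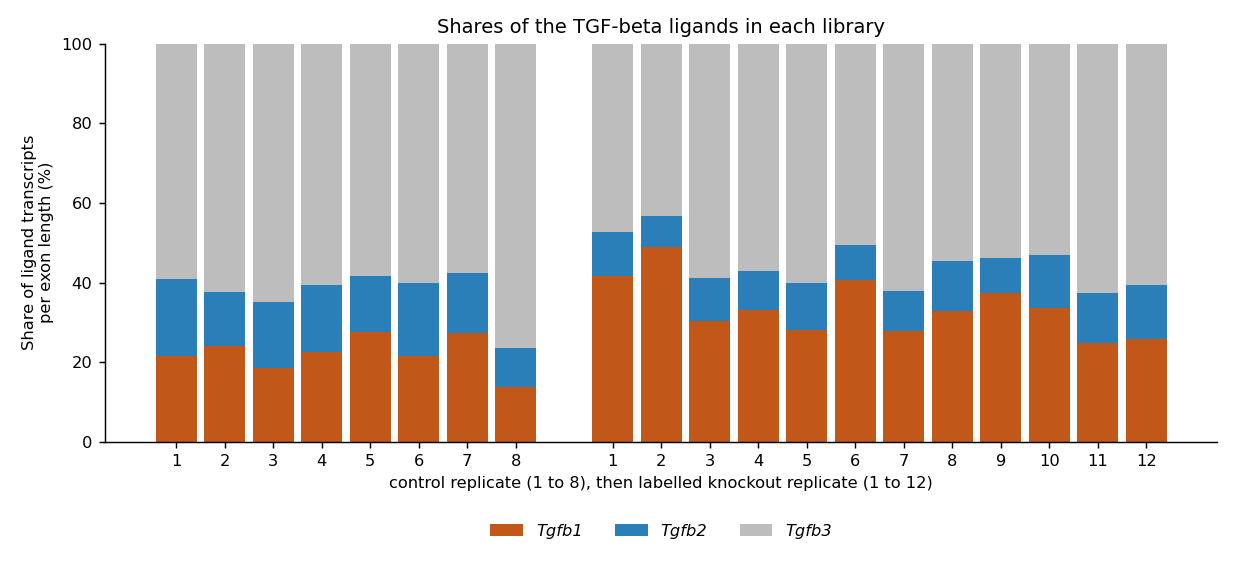
Shares (percent, stacked to 100) of *Tgfb1*, *Tgfb2* and *Tgfb3* in the summed CPM per exon length of the 3 ligands, 1 bar per library, control replicates 1 to 8 on the left and labelled-knockout replicates 1 to 12 on the right. At this length *Tgfb3* is the largest part in all controls and the mean *Tgfb1* part is 22.1% in control and 33.7% in the libraries labelled knockout (37.8% and 52.3% by median transcript length).

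Ratios of counts within a library do not depend on how libraries are scaled. The log2 ratio of *Tgfb1* to *Tgfb2* counts ran from -0.03 to 0.76 in control and from 0.74 to 2.44 in the libraries labelled knockout, a difference of 1.10 (exact permutation adjusted p = 0.000381 over 6 ratios), and 11 of 12 libraries lay above every control. The ratio of *Tgfb1* to *Tgfb3* was higher by 0.79 on the log2 scale (exact permutation adjusted p = 0.00186). Thus *Tgfb1* shifted against both other ligands. The ratio of *Tgfb3* to *Tgfb2* was higher by 0.31 (exact permutation adjusted p = 0.0499), just inside the threshold, and it stayed inside in 5 of 20 repeats that each left out 1 library, those without control replicate 8 or labelled-knockout replicate 1, 8, 10 or 12 (range of the difference 0.253 to 0.446).

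The latency proteins differed among themselves. *Ltbp1*, which binds the latent complex and directs it to fibronectin and fibrillin fibres, is on chromosome 17 (75005568 to 75392512, plus strand). It ran from 22.05 to 41.3 CPM (median 30.2) in control and from 32.01 to 67.9 CPM (median 51.8) in the libraries labelled knockout. The control median was exceeded in all 12 and the control maximum in 10. The log2 fold change was 0.72 (SE 0.14, adjusted p = 0.00207).

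*Ltbp2* is the family member that does not bind latent TGF-beta and works in elastic fibre assembly. It lies on chromosome 12 (84783212 to 84876532, minus strand). Its level varied most of the 10, from 13.0 to 206 CPM in control (median 109) and from 46.3 to 273 CPM in the libraries labelled knockout (median 134). The coefficient of variation was 59.6% in control and 44.9% in the libraries labelled knockout, against at most 33.0% and 31.6% for the other 9 genes. The groups overlapped almost throughout, and the log2 fold change of 0.27 (SE 0.37, adjusted p = 0.636) had a 95% interval from -0.46 to 0.9995.

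*Ltbp3*, which assists folding and secretion of the latent complex and is needed for normal skeletal growth, is on chromosome 19 (5740904 to 5758532, plus strand). It ran from 149 to 225 CPM (median 177) in control and from 159 to 326 CPM (median 230) in the libraries labelled knockout, with 11 of 12 above the control median. It rose by 0.37 on the log2 scale (SE 0.12, adjusted p = 0.0328). This call was lost when control replicate 3, 6 or 8 or labelled-knockout replicate 2, 4 or 7 was left out (highest adjusted p = 0.0665). The use of strand in counting is not given in the sources used here, so counts of *Ltbp3* are uncertain where transcripts overlap. The log2 ratio of *Ltbp1* to *Ltbp3* counts was higher by 0.36 (exact permutation adjusted p = 0.00793), and 11 of 12 exceeded the control median.

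Both receptors rose by similar amounts. *Tgfbr2*, the receptor that binds the ligand, is on chromosome 9 (116084293 to 116175360, minus strand). It ran from 65.5 to 118 CPM (median 83.4) in control and from 97.1 to 182 CPM (median 139) in the libraries labelled knockout. All 12 labelled-knockout libraries exceeded the control median and 8 the control maximum, and the log2 fold change was 0.66 (SE 0.13, adjusted p = 0.00261). *Tgfbr1*, the kinase that phosphorylates Smad2 and Smad3, is on chromosome 4 (47353222 to 47414931, plus strand). It ran from 29.2 to 45.4 CPM (median 38.3) in control and from 32.9 to 95.8 CPM (median 55.2) in the libraries labelled knockout. Its highest values were in labelled-knockout replicates 2, 1 and 10, at 95.8, 82.6 and 73.8 CPM, with the other 9 at most 58.5. The log2 fold change was 0.63 (SE 0.16, adjusted p = 0.00974). The log2 ratio of *Tgfbr2* to *Tgfbr1* counts differed by 0.08 between groups (exact permutation adjusted p = 0.556), so unequal change of the 2 receptors was not detected.

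Of the feedback genes, *Pmepa1* moved more than *Smad7*. *Pmepa1* is a TGF-beta target whose membrane protein holds Smad2 and Smad3 away from the receptor. The gene is on chromosome 2 (173224458 to 173276533, minus strand). It ran from 40.4 to 67.0 CPM (median 45.2) in control and from 57.5 to 124 CPM (median 101) in the libraries labelled knockout. In 11 of 12 libraries it lay above every control, all but replicate 12. It had the smallest adjusted p of the 10 genes (log2 fold change 0.91, SE 0.13, adjusted p = 0.00101).

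*Smad7*, on chromosome 18, is an inhibitory Smad that blocks receptor 1 and brings ubiquitin ligases to it. It ran from 16.4 to 28.4 CPM (median 22.2) in control and from 19.0 to 39.9 CPM (median 28.8) in the libraries labelled knockout. The highest 5 labelled-knockout libraries, from 35.0 to 39.9 CPM, were replicates 2, 4, 6, 8 and 9. The log2 fold change was 0.43 (SE 0.14, adjusted p = 0.0287), and the call was lost without control replicate 3 or 6 (highest adjusted p = 0.0576). The log2 ratio of *Pmepa1* to *Smad7* counts was higher by 0.49 (exact permutation adjusted p = 0.00186), and all 12 exceeded the control median.

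Levels of different genes were set side by side only as CPM per kilobase of exon. In control the order ran from *Tgfb3* at 23.3 ± 3.4 through *Ltbp3* at 20.0 ± 3.1, *Ltbp2* at 13.8 ± 8.2, *Tgfbr2* at 10.5 ± 2.2, *Pmepa1* at 10.3 ± 2.0 and *Tgfb1* at 8.44 ± 2.8 to *Tgfb2* at 5.76 ± 1.2, *Tgfbr1* at 5.71 ± 0.81, *Smad7* at 4.99 ± 0.89 and *Ltbp1* at 2.89 ± 0.65 (SD, n = 8). *Tgfb1* exceeded *Tgfb2*, and *Smad7* exceeded *Ltbp1*, in 8 of 8 control libraries. By contrast *Tgfbr2* and *Pmepa1* (mean difference 0.23 ± 0.80 SD), *Tgfb2* and *Tgfbr1* (0.05 ± 1.34 SD), *Tgfbr1* and *Smad7* (0.72 ± 1.005 SD) and *Ltbp2* and *Tgfbr2* (3.30 ± 7.002 SD) did not differ beyond their spread. In the libraries labelled knockout *Tgfb3* was again first at 29.1 ± 5.8, followed by *Ltbp3* at 25.9 ± 5.2, *Pmepa1* at 19.4 ± 3.8, *Tgfb1* at 17.6 ± 3.9, *Ltbp2* at 16.6 ± 7.5 and *Tgfbr2* at 16.6 ± 3.4. The lower levels were *Tgfbr1* at 8.83 ± 2.8, *Smad7* at 6.72 ± 1.5, *Tgfb2* at 5.74 ± 1.2 and *Ltbp1* at 4.76 ± 0.98 (SD, n = 12). Here the step from *Tgfbr2* to *Tgfbr1* held in 12 of 12 libraries and that from *Ltbp3* to *Pmepa1* in 11 of 12, while the other neighbours changed places in 3 or more libraries. *Tgfb2* thus stood in rank 7 in control and in rank 9 in the libraries labelled knockout, and *Tgfb1* in ranks 6 and 4. This order too rests on exon length, and by median transcript length *Ltbp3* came first in both groups, *Tgfb3* had ranks 3 and 5, *Tgfb1* ranks 4 and 2 and *Tgfb2* ranks 9 and 10.

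The markers of osteoclasts that moved with the groups were entered as a covariate to see how the fold changes depended on them. With the summed osteoclast list in the edgeR fit, 0 of the 15984 genes passed (1274 at an unadjusted p under 0.05), and 0 of the 10 TGF-beta genes (3 at an unadjusted p under 0.05, which were *Pmepa1*, *Tgfb3* and *Ltbp1*). No other tool was run with this covariate. The group accounts for 61.6% of the variance of the osteoclast list, so in this fit the group and the list cannot be told apart in full. The fold changes moved by unlike amounts in this fit, and whether the genes differ in this shift was not tested. *Tgfbr1*, *Tgfbr2* and *Smad7* went to -0.03 (SE 0.20), 0.04 (SE 0.12) and -0.05 (SE 0.18), the first and the last turning sign, and *Tgfb1* to 0.31 (SE 0.19). *Pmepa1* went from 0.91 to 0.52 (SE 0.17) and *Ltbp1* from 0.72 to 0.51 (SE 0.21), whereas *Tgfb3* went from 0.32 to 0.47 (SE 0.19). The adjusted p values of the 10 genes lay between 0.581 and 0.985 in this fit.

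Shifts with the other lists differed by gene. With the skeletal muscle list or the osteoblast and osteocyte list as covariate, *Tgfb1*, *Ltbp1*, *Tgfbr2* and *Pmepa1* stayed past the threshold and *Tgfbr1*, *Smad7* and *Ltbp3* did not. *Tgfb1* then had log2 fold changes of 0.83 (SE 0.18, adjusted p = 0.0193) and 0.75 (SE 0.14, adjusted p = 0.0081). The macrophage and the fibroblast list, tried after the group difference of these lists had been seen, each left 0 genes of the table past the threshold in edgeR (895 and 2323 at an unadjusted p under 0.05). The group accounts for 59.5% and 42% of the variance of these 2 lists. For the osteoblast and osteocyte list it accounts for 25.2% and for the skeletal muscle list for 24.8%. In these fits too the group and the list cannot be told apart in full. With the macrophage list *Ltbp1* (0.22, SE 0.17) and *Pmepa1* (0.40, SE 0.15) lay lower than with the osteoclast list, and *Ltbp3* turned sign (-0.03, SE 0.16, adjusted p = 0.997). With the fibroblast list *Ltbp1* was 0.36 (SE 0.14) and *Ltbp2*, which had not passed, turned from 0.27 to -0.47 (SE 0.41, adjusted p = 0.645). Without control replicate 8, *Tgfb1* had a log2 fold change of 0.98 (SE 0.17, adjusted p = 0.00202) and 6 of the 10 genes passed, and without that library and labelled-knockout replicate 9 together 5 passed, *Ltbp3* (adjusted p = 0.0995) and *Smad7* (adjusted p = 0.0894) being lost.

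**Figure D3:**
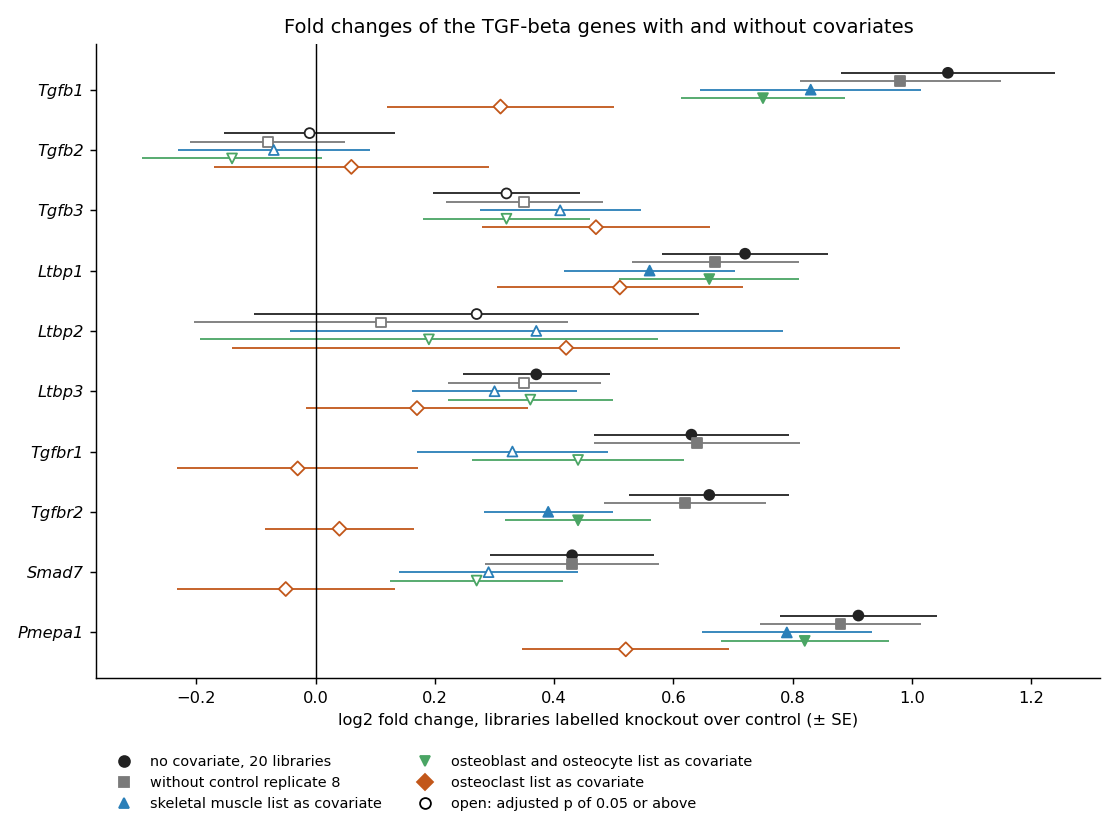
Log2 fold changes (libraries labelled knockout over control, with SE bars) of the 10 TGF-beta genes from 5 edgeR fits, filled where the adjusted p was under 0.05. With the osteoclast list as covariate *Tgfbr1*, *Tgfbr2* and *Smad7* lie at about 0, at -0.03, 0.04 and -0.05, while *Pmepa1*, *Ltbp1* and *Tgfb3* lie between 0.47 and 0.52.

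Within a group, some of the 10 genes followed the marker lists across libraries. Log2 CPM of each gene was correlated with the log2 summed level of 6 lists within each group, 120 relations in all, and 14 passed after adjustment by Pearson's r, the measure meant by passing here. How many of all tested genes follow these lists as closely was not examined. The relations are thus not shown to be particular to the TGF-beta genes. In the 12 libraries labelled knockout, *Tgfbr2* rose with the osteoclast list (Pearson r = 0.85, permutation adjusted p = 0.0120, Spearman rho = 0.89, permutation adjusted p = 0.0119, r = 0.79 once the 2 libraries with the most extreme list levels were dropped). *Tgfb1* (r = 0.84, permutation adjusted p = 0.0120, rho = 0.83, permutation adjusted p = 0.0282, r = 0.71 without the 2) and *Tgfbr1* (r = 0.80, permutation adjusted p = 0.0298, rho = 0.80, permutation adjusted p = 0.0372, r = 0.72 without the 2) did likewise. Both receptors went against the skeletal muscle list, *Tgfbr1* with r = -0.94 (permutation adjusted p = 0.0012, rho = -0.95, permutation adjusted p = 0.0024, r = -0.88 without the 2) and *Tgfbr2* with r = -0.92 (permutation adjusted p = 0.00496, rho = -0.94, permutation adjusted p = 0.003, r = -0.86 without the 2). *Pmepa1* rose with the macrophage list (r = 0.76, permutation adjusted p = 0.0354), though its rank correlation did not pass (rho = 0.63, permutation adjusted p = 0.172) and r was 0.47 without the 2 farthest libraries.

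In the 8 control libraries 8 relations passed, of which that of *Tgfbr2* with the osteoclast list passed in both groups. *Tgfb1* (r = 0.87, exact permutation adjusted p = 0.00496, rho = 0.98, exact permutation adjusted p = 0.0119, r = 0.81 without the 2) and *Ltbp1* (r = 0.90, exact permutation adjusted p = 0.0119, rho = 0.93, exact permutation adjusted p = 0.0372, r = 0.89 without the 2) rose with the osteoblast and osteocyte list. *Ltbp2* did so by Pearson's r alone (r = 0.91, exact permutation adjusted p = 0.0469, rho = 0.74, exact permutation adjusted p = 0.177), and this rested on the 2 farthest libraries, without which r was 0.23. *Ltbp1*, *Tgfbr2* and *Pmepa1* had r between 0.85 and 0.87 with the osteoclast list (exact permutation adjusted p = 0.0354 each), with rank correlations that did not pass and r from 0.63 to 0.75 without the 2 farthest. The remaining passing relations, *Tgfb1* with the chondrocyte list (r = 0.77, exact permutation adjusted p = 0.0469) and *Ltbp1* with the fibroblast list (r = 0.83, exact permutation adjusted p = 0.0497), did not pass by rank. Conversely, *Tgfbr2* passed with the osteoblast and osteocyte list by rank alone (rho = 0.95, exact permutation adjusted p = 0.0274, r = 0.69, exact permutation adjusted p = 0.176). Whether a relation differs between the groups was not tested. Genes and lists come from the same libraries and are shares of the same totals, so they are not independent of each other.

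The feedback genes were then set against the ligands, 12 relations in all. In the libraries labelled knockout *Smad7* followed *Tgfb1* closely (r = 0.91, permutation adjusted p = 0.00132, rho = 0.90, permutation adjusted p = 0.00204, r = 0.84 once the 2 libraries with the most extreme *Tgfb1* were dropped). In control that relation did not pass (r = 0.56, exact permutation adjusted p = 0.298, rho = 0.57, exact permutation adjusted p = 0.295). For *Pmepa1* it was control in which the relation with *Tgfb1* passed (r = 0.88, exact permutation adjusted p = 0.0191, rho = 0.95, exact permutation adjusted p = 0.00685, r = 0.79 without the 2), while r was 0.63 in the libraries labelled knockout (permutation adjusted p = 0.118, rho = 0.64, permutation adjusted p = 0.121). The differences between groups were not tested. How many of all tested genes follow *Tgfb1* as closely was not examined, so the relations are not shown to be particular to the feedback genes. In the libraries labelled knockout *Myo1d*, picked as the gene most like *Tgfb1*, had r = 0.91 with it. There *Tgfb1* and *Smad7* had r = 0.84 and 0.64 with the osteoclast list, the latter not passing (permutation adjusted p = 0.1096). The part of tissue make-up in these relations was not tested. Of the 8 relations with *Tgfb2* or *Tgfb3*, 0 passed (lowest permutation adjusted p = 0.276 for Pearson's r and 0.249 for Spearman's rho), and the lowest r was -0.48, for *Pmepa1* and *Tgfb2* in the libraries labelled knockout.

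**Figure D4:**
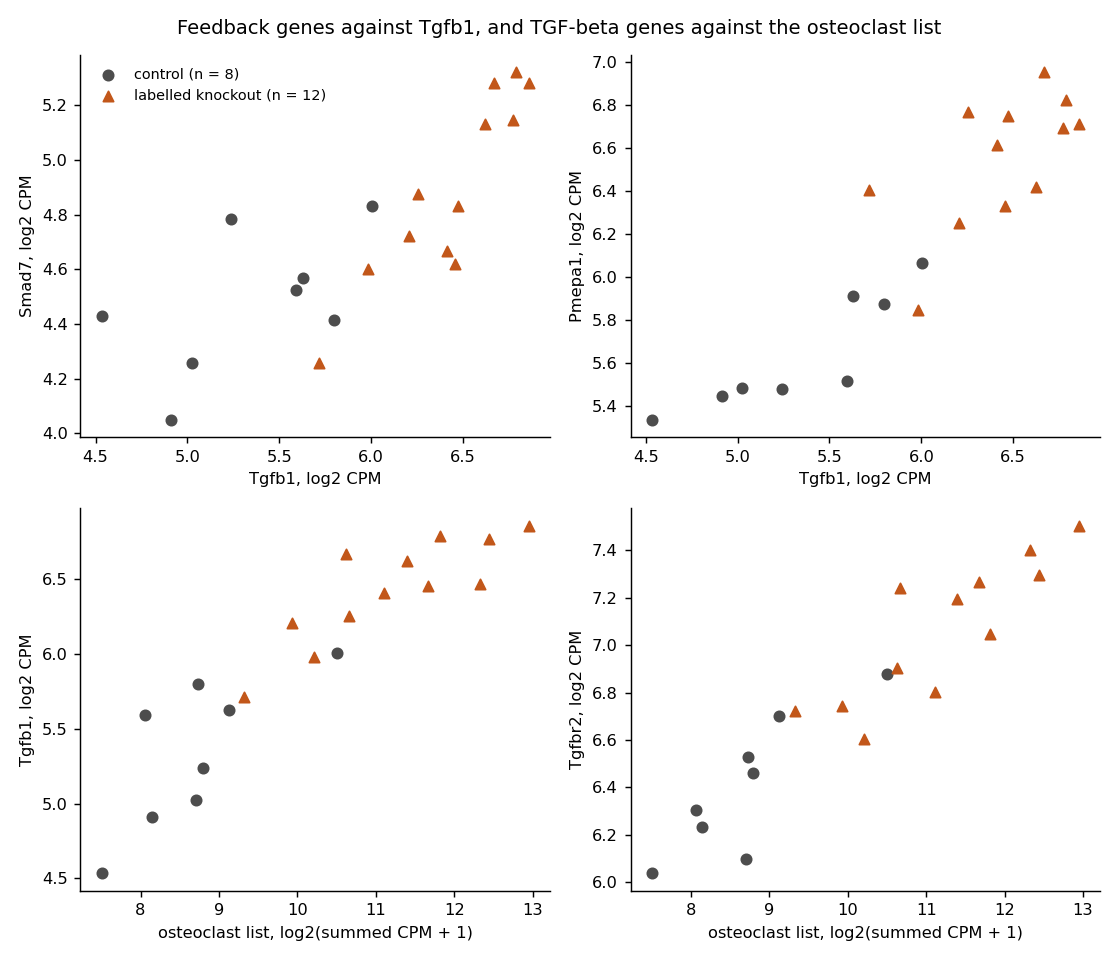
Each point is a library (control, grey circles, n = 8, and labelled knockout, orange triangles, n = 12), with *Smad7* and *Pmepa1* against *Tgfb1* in the upper panels (log2 CPM on both axes) and *Tgfb1* and *Tgfbr2* against the summed osteoclast list in the lower panels (log2 of summed CPM plus 1). Within the labelled-knockout libraries r is 0.91 for *Smad7* and 0.63 for *Pmepa1* against *Tgfb1*, and 0.84 and 0.85 for *Tgfb1* and *Tgfbr2* against the osteoclast list.

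Among themselves, group-centred over the 20 libraries and given as a description, the 10 genes paired most closely as *Tgfb2* with *Ltbp2* (r = 0.78), *Tgfb1* with *Tgfbr2* (r = 0.75) and *Ltbp1* with *Pmepa1* (r = 0.74). The receptors *Tgfbr1* and *Tgfbr2* had r = 0.94 within the libraries labelled knockout and r = -0.15 within control. Over 13957 other protein-coding genes, the one most like *Tgfb1* was *Myo1d*, an unconventional myosin (r = 0.94), and that most like *Tgfb2* was *Matn2*, a matrix protein of the matrilin family (r = 0.92). For *Tgfbr1* it was the zinc transporter *Slc30a4* (r = 0.89) and for *Tgfb3* the phosphatidate phosphatase *Lpin3* (r = 0.82). *Pmepa1* was most like *Loxl1*, a lysyl oxidase of elastic fibres (r = 0.87), and *Ltbp2* most like the amino acid transporter *Slc1a4* (r = 0.95). *Ltbp1* was most like the BMP antagonist *Nbl1* (r = 0.84), *Ltbp3* like the NF-κB subunit *Rela* (r = 0.89) and *Smad7* like the adaptor *Bcar1* (r = 0.89). All of these were picked as the highest of many, from libraries that share depth and tissue make-up, so no p is given.

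Beyond the 10 genes, 89 further genes of the pathway were listed by role, of which 87 were tested. Of these 36 rose and 5 fell in the libraries labelled knockout, against 12% and 11% of all tested genes, and their median log2 fold change was 0.40. Genes of the ligand's storage and release and genes known as TGF-beta targets gave 14 each of the 36, whereas the Smads that carry the signal, *Smad2*, *Smad3* and *Smad4*, did not pass. The plot of the pathway by role shows each list.

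**Figure D5:**
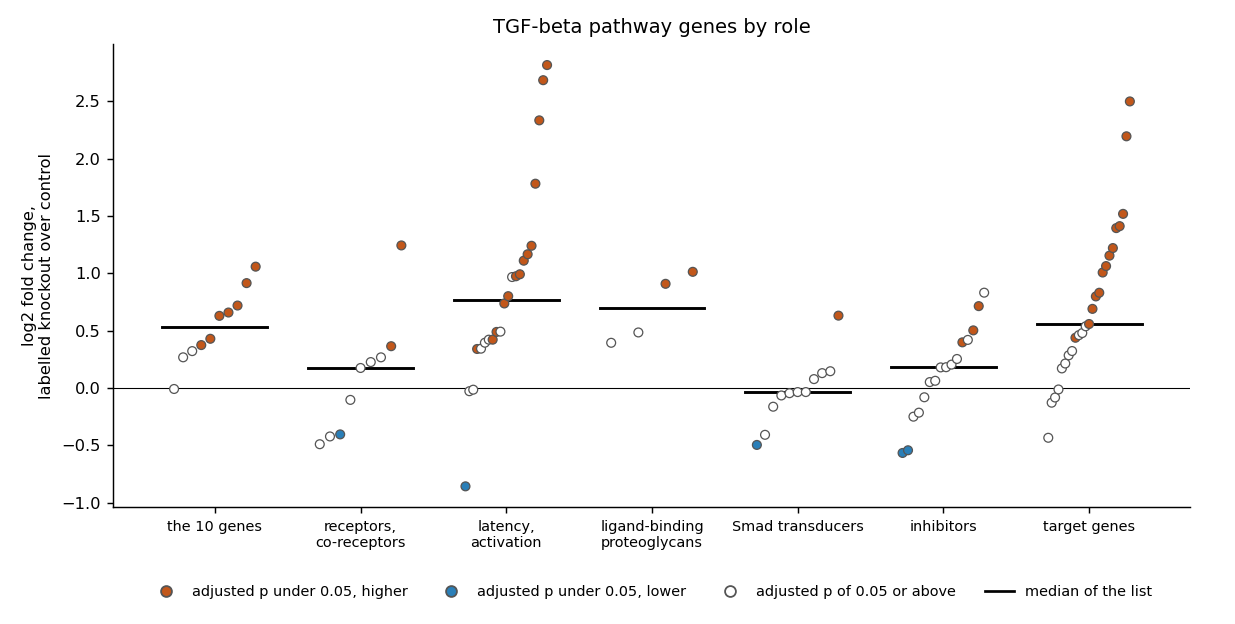
Log2 fold change (libraries labelled knockout over control) of each tested gene of the TGF-beta pathway by role, sorted within each list, orange where higher and blue where lower at an adjusted p under 0.05, with the median of each list as a bar. Latency and activation genes and target genes reach up to 2.82 and 2.50, while the Smad transducers lie around a median of -0.04.

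Of the 22 tested genes of latency and activation 14 rose and 1 fell (68.2% called, against 23% of all tested genes), with a median of 0.77. *Mmp9*, a gelatinase, had the largest change of the list (2.82, SE 0.57, adjusted p = 0.00258). *Mmp9* and *Ctsk*, the collagen-degrading cathepsin of osteoclasts (2.68, SE 0.48, adjusted p = 0.0014), are also members of the osteoclast list. *Fbn1*, the fibrillin to which latent complexes are anchored, rose from 43.0 ± 16.6 to 92.8 CPM ± 48.1 (log2 fold change 1.11, SE 0.28, adjusted p = 0.00845). *Itgav*, the integrin chain that pulls on the latency peptide, rose by 0.80 (SE 0.21, adjusted p = 0.0109). Its partner chain *Itgb8* was low, at 5.32 ± 7.0 CPM in control, and had a log2 fold change of -0.01 (SE 0.65, adjusted p = 0.989). *Itgb6*, the epithelial partner chain, was the gene of this list that fell (-0.86, SE 0.13, adjusted p = 0.00104). *Ltbp4*, a further latent TGF-beta binding protein (0.40, SE 0.21, adjusted p = 0.172), and *Thbs1*, a thrombospondin that can free the factor (0.34, SE 0.33, adjusted p = 0.469), did not pass.

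Among 9 receptors and co-receptors 2 rose and 1 fell (33.3% called, against 23% of all tested genes). *Cd109*, a co-receptor that restrains TGF-beta signalling, changed most (1.24, SE 0.26, adjusted p = 0.00313), and endoglin (*Eng*), a co-receptor of endothelium, rose by 0.36 (SE 0.13, adjusted p = 0.0461). The *Eng* call held in 9 of 20 fits that each left out 1 library and was lost without control replicate 1, 3, 4, 6 or 8 or labelled-knockout replicate 2, 3, 4, 6, 7 or 9 (highest adjusted p = 0.0908). The activin receptor *Acvr2a* fell (-0.40, SE 0.12, adjusted p = 0.0167), a call lost without control replicate 8 (adjusted p = 0.0558). Betaglycan (*Tgfbr3*), which presents *Tgfb2* to the receptors, had 38.1 ± 8.4 CPM in control and 44.7 CPM ± 9.9 in the libraries labelled knockout (0.23, SE 0.14, adjusted p = 0.263). Of 4 proteoglycans that bind the ligand, biglycan (*Bgn*, 1.01, SE 0.28, adjusted p = 0.0149) and asporin (*Aspn*, 0.91, SE 0.23, adjusted p = 0.00916) rose, while decorin (*Dcn*, 0.39, SE 0.24, adjusted p = 0.247) did not pass. That is 50% called on a list of 4 genes, against 23% of all tested genes.

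The Smad transducers gave 1 higher and 1 lower gene of 11 tested (18.2% called, against 23% of all tested genes). *Smad2* (0.13, SE 0.11, adjusted p = 0.423), *Smad3* (-0.41, SE 0.19, adjusted p = 0.119) and the shared partner *Smad4* (-0.06, SE 0.08, adjusted p = 0.564) did not pass. The *Smad3* value rested on control replicate 8, at 248.7 CPM against at most 130.1 in the other control libraries, and without it was -0.10 (SE 0.11, adjusted p = 0.591). The adaptor *Dab2*, which links the receptors to Smad proteins, rose by 0.63 (SE 0.17, adjusted p = 0.0140), and *Zfyve9*, the anchor that brings Smad2 and Smad3 to the receptor, fell (-0.50, SE 0.14, adjusted p = 0.0140). Of 16 inhibitors 3 rose and 2 fell (31.25% called). *Smad6*, the other inhibitory Smad, had the largest change among those that passed (0.71, SE 0.20, adjusted p = 0.0140), and the corepressor *Ski* rose by 0.40 (SE 0.11, adjusted p = 0.0133). Its relative *Skil* (0.25, SE 0.16, adjusted p = 0.267), the ubiquitin ligase *Smurf2* (0.18, SE 0.09, adjusted p = 0.152) and the decoy receptor *Bambi* (0.83, SE 0.33, adjusted p = 0.0753) did not pass. The ligase *Nedd4l* and the deubiquitinase *Usp15* fell, by 0.57 and by 0.54 on the log2 scale (adjusted p = 0.00413 and 0.00387).

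Of 25 target genes 14 rose and 0 fell (0 lower with DESeq2 and 0 lower at an unadjusted p under 0.05), with a median of 0.56. Thus 56% of them were called, against 23% of all tested genes (12% higher and 11% lower). *Col1a1*, the main collagen of bone, changed most, from 3240 ± 2965 to 18300 CPM ± 9541 (log2 fold change 2.50, SE 0.45, adjusted p = 0.00144). *Tgfbi*, a matrix protein named for its induction by TGF-beta, rose by 1.06 (SE 0.36, adjusted p = 0.0381), and the call was lost in 10 of 20 fits that each left out 1 library, without control replicate 1, 2, 3, 6, 7 or 8 or labelled-knockout replicate 4, 5, 7 or 10 (highest adjusted p = 0.0761). *Ccn2* (0.17, SE 0.27, adjusted p = 0.678) and *Klf10* (0.21, SE 0.10, adjusted p = 0.141), which are often read as signs of TGF-beta signalling, did not pass. The smooth muscle gene *Tagln* was near the lower end of the range, at 1.22 ± 0.61 CPM in control, and had a log2 fold change of -0.13 (SE 0.28, adjusted p = 0.779). The 14 targets that rose had log2 fold changes from 0.44 to 2.50. With the osteoclast list as covariate 0 of the 87 genes passed (14 at an unadjusted p under 0.05), with the osteoblast and osteocyte list 16 and with the skeletal muscle list 14.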

How the data were processed

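Counts per gene were deposited by the authors for 8 control and 12 knockout libraries. Per the study's methods, the sequencing provider's script trimmed the paired-end reads, which were mapped to mm10 and counted with featureCounts (the aligner, annotation release and strand setting are not given in the sources used here). Groups and replicate numbers came from the sample titles, and the study's methods count 8 and 12 mice. Symbols, coordinates and exon lengths came from GENCODE M21 (GRCm38), promoter windows from RefSeq.

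Counts were tested with edgeR 4.0.16 in R 4.3.3 (filterByExpr, TMM, quasi-likelihood test, two-sided, Benjamini-Hochberg over all genes). DESeq2 1.42.0, which the study used, was an alternative, as were other scalings, filters, covariates, a replicate block and omission of each library. Log2 CPM had a prior count of 2. Shares, ratios and marker sums were compared by exact permutation over all assignments. Correlations used all 40320 pairings for control and 100000 resamples for the libraries labelled knockout.

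The genes, lists and tests were chosen with earlier results of these data known. The text names the 10 genes, *Loxl2*, a set chosen by place in the pathway, the called gene with the largest change of each list and the most alike gene of each member (a few of these are not reported here); *Acvr2a*, *Itgb6*, *Ctsk*, *Zfyve9*, *Nedd4l* and *Usp15* were named after their values were seen. Relations with marker lists and the ratios were also added then. The procedure was tested on simulated counts. Intervals of fold changes are 95% normal intervals from the SE.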

Additional observations from a re-analysis of the deposited data

Results flagged for a closer look

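A pair of values in the control group stood apart from the other control libraries by Dixon's test, out of 19 measures examined, of which chance alone would be expected to mark about 5%. Both belong to control replicate 8. Its *Tgfb3* share of the length-scaled ligand signal was 76.46%, against 64.9% in the next highest control library. Its log2 ratio of *Tgfb3* to *Tgfb2* counts was 2.197, against 1.40 in the next highest. This library also had the lowest *Tgfb1* and *Tgfb2* of the control group, at 23.0 and 18.7 CPM, the highest skeletal muscle sum and the lowest chondrocyte sum. The part of the tissue make-up in these values was not tested.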

How the results depend on the processing

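The 7 calls among the 10 TGF-beta genes were 7 with DESeq2, with DESeq2 size factors or upper-quartile scaling, with a filter at a mean of 1 CPM, with protein-coding genes alone and with a Y-linked list as covariate, 8 with library totals and 6 without a filter. They were 0 with the osteoclast, macrophage or fibroblast list as covariate and 4 with the osteoblast and osteocyte or the skeletal muscle list. Over all genes 3673 were called, and 0, 0, 0, 914 and 885 with these lists in that order, and 2157 without control replicate 8 and labelled-knockout replicate 9. The other pathway genes went from 41 calls to 0, 0, 0, 16 and 14. Signs turned for *Tgfbr1* (-0.03) and *Smad7* (-0.05) with the osteoclast list and *Ltbp3* (-0.03) with the macrophage list, and, among genes not called, for *Ltbp2* with the fibroblast list (-0.47) and *Tgfb2*, near 0 at -0.01, under several settings, among them the osteoclast (0.06), macrophage (0.14) or Y-linked (0.01) list as covariate and library totals (0.11). Library totals raised the share of higher calls from 52.2% to 72.0%. Leaving out 1 library at a time gave 2551 to 4181 genes, 5 to 8 of the 10 and 36 to 43 pathway genes, a *Tgfb3* share difference of -7.79 to -5.10 points and a *Tgfb3* to *Tgfb2* log2 ratio difference of 0.253 to 0.446, the last past the threshold in 5 of 20. Median transcript length in place of exon length gave share differences of 14.4, -5.40 and -9.03 points for *Tgfb1*, *Tgfb2* and *Tgfb3*. Same-numbered samples did not deviate together (correlations -0.36 to 0.168, 0 of 8 highest with its own number), so no pairing by number was detected. A weak shared effect could be missed by this check. With the replicate block, 1786 genes, 6 of the 10 and 28 pathway genes were called against 3280, 7 and 40 in the same 16 libraries without it, *Smad7* being lost (adjusted p = 0.0967). The labels give neither a batch nor the sex of a library.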
